A study of Mus musculus with 4 samples.

Results

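The genes described here are 8 interferon-inducible GTPase genes, Iigp1, Tgtp1, Irgm1, Igtp, Ifi47, Gbp2, Gbp3 and Gbp5, measured in a mouse hepatic stellate cell line given a fatty acid and stem cell medium. They were chosen by a list of names drawn up with the PA results of these arrays already known, found by current or older gene name, and cover 11 of the 41146 probes and 8 of the 26793 gene names with a value on the arrays. All 8 were well above background on all 4 arrays, by the flag of the scanner software. The cells were IMS/N, stellate cells from livers of normal 129/Sv mice that had been immortalized with SV40. Since all 4 conditions used this one line, nothing here separates the line from stellate cells in general. Control cells were given neither agent, and the other 3 conditions were palmitic acid (PA), medium taken from cultured adipose tissue-derived stem cells (ADSC medium), and both together. The ADSCs came from inguinal subcutaneous fat of male C57BL/6J mice 8 to 10 weeks old. The dose and time of PA, and whether cells without ADSC medium had the same base medium, are not given here by the labels.

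Each condition was measured on 1 one-colour Agilent array, so no difference below has a test or a p-value, and the variation between cultures is unknown. Levels are log2 intensities after quantile normalization of the 4 arrays, and differences are on the same log2 scale unless a fold is given. The arrays shared 1 slide and 1 scan, had between 67.9% and 70.3% of spots well above background, and the PA array had the highest share and the brightest 75th percentile of signal (622, against 495 to 542 on the other 3). Between 2 single spots of the same probe on an array, the SD of the difference was 0.0675 at levels of 9 to 11, 0.132 at levels of 5 to 7 and 0.29 under 5, which is an error of measurement only. RNA came from whole cultures, so more cells that express a gene and more RNA per cell cannot be told apart.

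Interferon-inducible GTPases are among the most strongly induced products of interferon signalling in mouse cells, and act inside the cell against vacuolar bacteria and parasites. Immunity-related GTPases (IRGs) of the effector kind, here Iigp1, Tgtp1 and Ifi47, load onto the membrane of the vacuole that holds the microbe and break it. IRGM proteins, here Irgm1 and Igtp, sit on the cell's own membranes and hold the effectors inactive there. Guanylate-binding proteins (GBPs), here Gbp2, Gbp3 and Gbp5, are larger relatives that coat microbes and vacuoles and help activate inflammasomes. Type II interferon acts on such genes mainly through the gamma-activated site (GAS), and type I interferon through the interferon-stimulated response element (ISRE), 2 short DNA elements near the start of the gene.

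The DNA before these genes is shown first, because the genes were high together and 6 of the 7 whose promoter windows were examined had an ISRE-like match. The entries come from RefSeq on build GRCm38.p6, and the search covered the 250 bases before the annotated start, on both strands. ISRE-like matches, the letters GAAA, any 2 bases and GAAA again, or TTTC, any 2 bases and TTTC on the other strand, were found before Tgtp1, Irgm1, Igtp, Gbp2, Gbp3 and Gbp5, against 2.98% of all 32851 windows in the table. TTCNNNGAA (GAS-like, its own reverse complement) was found before Tgtp1, Igtp and Gbp5, against 7.02% of windows. Ifi47 and a second Gbp3 start held neither, and Iigp1 had no entry. An NF-kB-like match, GGGA, any 2 bases and TTCC, or GGAA, any 2 bases and TCCC on the other strand, present in 1.21% of windows, was found before Gbp5 alone among the 7 genes and overlaps neither of the other motifs there. A match is a string of letters and does not show that a factor was bound. In the lines below, which end before the outermost annotated start of each gene, capitals mark ISRE-like and GAS-like matches. The capitals of Irgm1 and Gbp3 are each a pair of overlapping ISRE-like matches. The ISRE-like match of Gbp5 begins 165 bases before its start and lies outside the stretch printed.
Irgm1 (chr11:48871421-48871540, minus strand): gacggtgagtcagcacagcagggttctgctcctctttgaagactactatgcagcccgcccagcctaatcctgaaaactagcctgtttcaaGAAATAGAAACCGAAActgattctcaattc
Gbp2 (chr3:142620543-142620662, plus strand): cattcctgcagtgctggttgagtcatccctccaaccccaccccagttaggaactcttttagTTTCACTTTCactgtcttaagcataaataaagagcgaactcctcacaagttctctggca
Gbp3 (chr3:142559896-142560015, plus strand): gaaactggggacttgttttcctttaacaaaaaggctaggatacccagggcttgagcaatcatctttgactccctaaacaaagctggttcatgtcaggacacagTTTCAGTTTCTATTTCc
Gbp5 (chr3:142496814-142496933, plus strand): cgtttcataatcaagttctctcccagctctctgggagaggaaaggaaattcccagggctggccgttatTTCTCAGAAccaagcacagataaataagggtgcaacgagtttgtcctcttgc

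Tgtp1 and Igtp had both matches in one fixed layout, with the GAS-like letters followed after 2 bases by the ISRE-like letters on the gene's own strand. The joined pattern, TTCNNNGAA, any 2 bases, GAAA, any 2 bases and GAAA, put together after these matches had been seen, occurred in 5 of the 32851 windows (0.0152%). Those windows belonged to Tgtp1, its near copy Tgtp2, Igtp, its neighbour Irgm2, and Gm12185, a further gene of chromosome 11 whose older name is Irgb2b1. The stretch is printed for the 4 of these genes on the GTPase lists, with 20 bases on either side and capitals for the 2 matches.
Tgtp1 (chr11:48992294-48992354, minus strand): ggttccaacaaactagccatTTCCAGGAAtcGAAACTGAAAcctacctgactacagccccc
Tgtp2 (chr11:49064253-49064313, minus strand): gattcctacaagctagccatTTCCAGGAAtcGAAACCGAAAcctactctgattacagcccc
Igtp (chr11:58199491-58199551, plus strand): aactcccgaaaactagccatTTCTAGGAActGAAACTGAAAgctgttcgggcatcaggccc
Irgm2 (chr11:58214882-58214942, plus strand): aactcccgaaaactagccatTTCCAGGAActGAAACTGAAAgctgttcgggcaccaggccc
Over these 61 bases Igtp and Irgm2 were identical at 59 positions, Tgtp1 and Tgtp2 at 47, and Tgtp1 and Igtp at 39, so these windows are alike well beyond the motifs and do not count as separate observations. Gm12185 was not well above background on any of the 4 arrays on either of its probes.

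**Figure D1:**
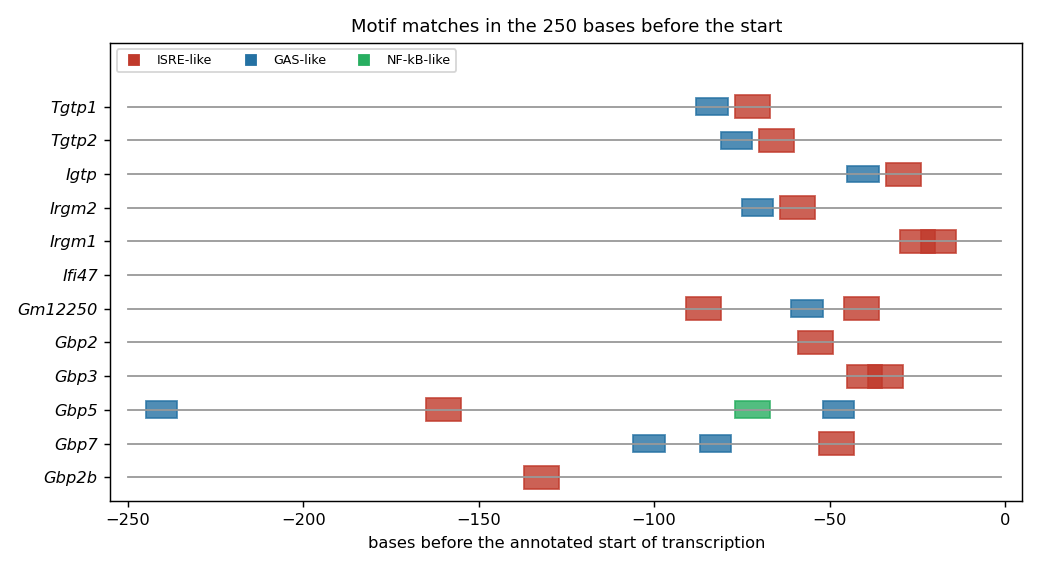
Position of each motif match in the 250 bases before the annotated start, in bases on the x axis, for 7 of the GTPase genes and the 5 of 8 relatives with a match (Irgq, 9930111J21Rik1 and 9930111J21Rik2 had none); red boxes are ISRE-like, blue GAS-like and green NF-kB-like matches. The paired blue and red boxes of Tgtp1, Tgtp2, Igtp and Irgm2 are always 2 bases apart, and Ifi47 has no match.

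PA was compared with control to ask how the fatty acid changed these genes in stellate cells. PA went with a level at least 2-fold above control in all 8, with a median difference of 2.16 (4.48-fold) and a range of 1.44 to 2.97. Over all 18209 genes compared, 1.09% reached 2-fold in that direction, 0.599% in the other, and the median difference was -0.01. The genes were selected on these values, so the count describes the choice and nothing is read from it.

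Of the effector IRGs, Iigp1 on chromosome 18 had a level of 8.46 in control, 11.43 with PA, 8.30 with ADSC medium and 10.94 with both. Its difference with PA, 2.97 or 7.84-fold, ranked 13 among all genes compared, and its difference with PA in the presence of ADSC medium, 2.64 or 6.23-fold, ranked 10 of 18465. Tgtp1 (chromosome 11, 48800173 to 48800232, mm9) stood at 7.30, 10.01, 7.18 and 9.29 in the same order. It was thus 6.58-fold higher with PA and 4.31-fold higher with PA when ADSC medium was present. A dimmer Tgtp1 probe gave 3.92, 4.80, 3.80 and 4.21, a smaller difference with PA (0.88) but the same order of conditions. Both probes also list the transcript of Tgtp2, so the 2 genes cannot be told apart. Ifi47 (chromosome 11, 48910173 to 48910232) read 8.80, 10.45, 8.69 and 9.96, with differences of 1.65 without and 1.27 with ADSC medium. In all 3 effector genes both arrays with PA were above both arrays without it.

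The IRGM genes had the same split between arrays with and without PA. Igtp (chromosome 11, 58020927 to 58020986) had levels of 12.15 in control, 14.49 with PA, 11.82 with ADSC medium and 14.25 with both. PA went with a 5.07-fold higher level without ADSC medium and a 5.37-fold higher level with it. Irgm1 (chromosome 11, 48679069 to 48679128) stood at 12.24, 13.68, 11.92 and 13.48, so its differences with PA were 1.44 and 1.56, and the 1.44 was the smallest of the 8. A second Irgm1 probe repeated these differences, at 1.54 and 1.69. The last probe, none of whose listed transcripts matched RefSeq, was well above background only on the 2 arrays with PA, at 2.85 and 2.76.

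The 3 GBP genes, which belong to a cluster on chromosome 3, followed the same pattern. Gbp3 (142236072 to 142236131) had levels of 11.30 in control, 13.61 with PA, 11.17 with ADSC medium and 13.35 with both, and was 4.95-fold higher with PA alone. Gbp2 (142300719 to 142300778), whose product carries a lipid anchor, stood at 10.37, 12.18, 10.43 and 11.87, a 3.50-fold difference with PA. Gbp5 (142184779 to 142184838), a promoter of inflammasome assembly, stood at 5.39, 7.42, 5.72 and 7.18. Its difference with PA of 2.02 was 1.21 with the normexp background, the greatest such loss among the 8, and it is the gene with the dimmest representative probe.

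**Figure D2:**
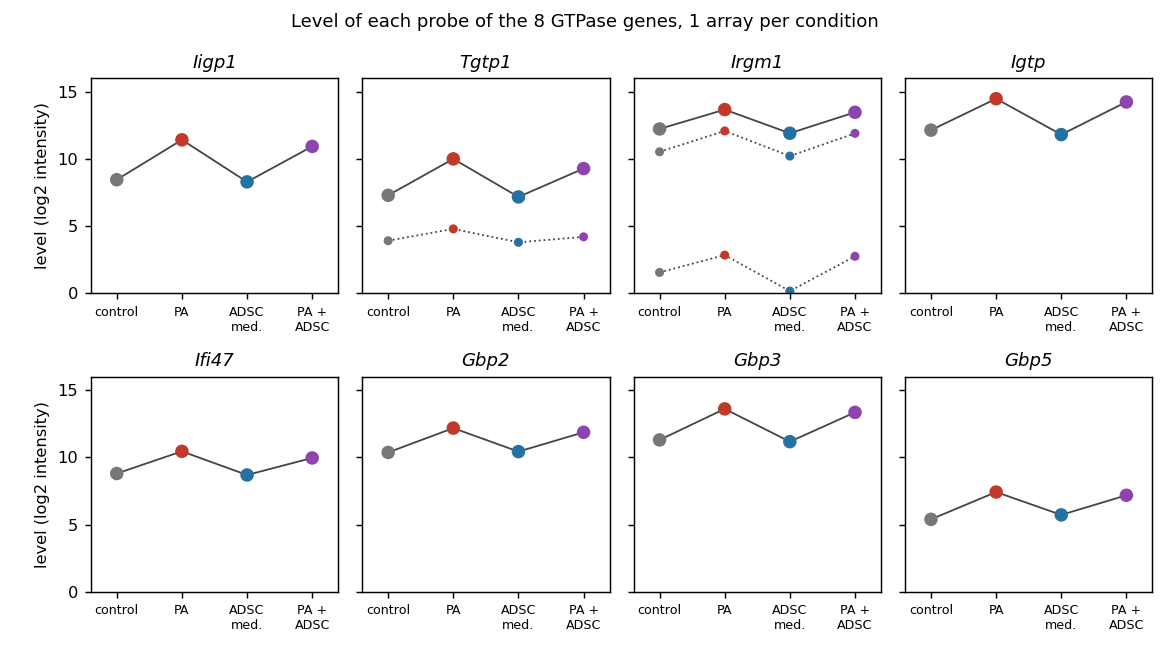
Quantile-normalized log2 intensity (y axis) of every probe of the 8 genes on the 4 arrays (x axis, 1 array per condition, no error bars); large points joined by a solid line are the probe that represents the gene and small points joined by a dotted line the other probes of Tgtp1 and Irgm1. In all 8 panels both conditions with PA lie above both without it.

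The PA comparison can also be made between the 2 arrays with ADSC medium. With ADSC medium present, PA went with a level at least 2-fold higher in all 8, where 1.26% of 18465 genes reached that and 0.477% were 2-fold lower, with a median difference of 1.83 (3.57-fold) and a range of 1.27 to 2.64. With the normexp background 7 of the 8 remained past 2-fold, and Gbp5 stood at 0.92 in place of 1.46. Against control, PA and ADSC medium together left all 8 at least 2-fold higher (median 1.89, range 1.16 to 2.48), against 1.81% of genes, with 0.422% at least 2-fold lower. This last comparison shares its control array with that of PA alone. The genes were chosen with results of these arrays known, so nothing is read from these counts either.

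**Figure D3:**
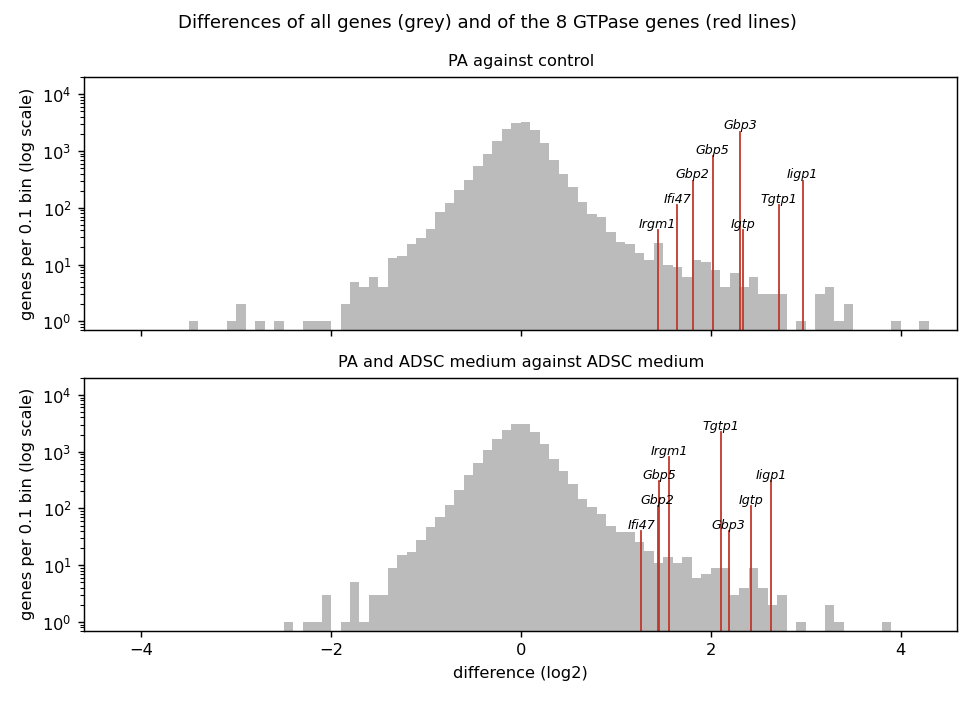
Number of genes per 0.1 of log2 difference (grey bars, y axis on a log scale) for PA against control (upper panel) and both agents against ADSC medium (lower panel), with red lines at the 8 GTPase genes; line heights only separate the labels. The 8 lines stand from 1.44 to 2.97 above and from 1.27 to 2.64 below, to the right of the bulk of genes around 0.

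The ADSC medium comparison in the presence of PA asks whether the medium brought these genes back toward control. All 8 were lower with the medium, but none by 2-fold and only Tgtp1 by 1.5-fold (difference -0.72, a level 60.5% of that with PA alone). The background shares were 0.507% of 18751 genes at least 2-fold lower and 3.72% at least 1.5-fold lower, with 1.75% at least 2-fold higher. The median difference of the 8 was -0.28, with the other 7 between -0.49 and -0.20. On the log2 scale and by the representative probes, between 70.0% (Ifi47) and 89.6% (Igtp) of the PA difference from control was still present with the medium. The dimmer Tgtp1 probe kept less, with 0.88 for PA against control and 0.29 for both agents against control. With the mean of detected probes these 2 differences of Tgtp1 were 1.80 and 1.14. The same median of -0.28 was found over all 165 genes that exceeded control 2-fold under PA and were well above background on all 4 arrays, of which 84.8% were lower with the medium by any amount. The PA array enters both the choice of these genes and the comparison.

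The authors' deposited table of probes higher with PA than in control, which holds 3.84% of the array's probes, includes 1 probe of each of the 8 genes. The authors' deposited table of probes higher with PA than with PA and ADSC medium holds 2.23% of the array's probes and includes 1 of the 8 genes, Tgtp1. Tgtp1 is also the gene with the greatest difference of the 8 in that comparison here.

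Without PA, ADSC medium made little difference. None of the 8 differed by 1.5-fold from control (background 2.31% higher and 1.29% lower), nor by 2-fold (0.533% higher and 0.121% lower), with a median of -0.12 and a range of -0.33 to 0.33. Igtp and Irgm1 were the lowest, at -0.33 and -0.32, and Gbp5 the highest, at 0.33, or 0.11 with the normexp background. With the mean of detected probes Irgm1 passed 1.5-fold, at -0.68, through a probe not well above background on either of these arrays. Gbp2, at 0.06, differed by less than the SD between 2 spots.

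Among the genes well above background on all 4 arrays, the effector and IRGM classes differed in how the medium went with their RNA. In the presence of PA the effector genes Iigp1, Ifi47 and Tgtp1 stood at -0.49, -0.49 and -0.72 with the medium. The IRGM genes Irgm1, Igtp and Irgm2, the last not one of the 8, stood at -0.20, -0.24 and -0.31. Without PA the order was the other way round, with the effectors between -0.16 and -0.11 and the IRGM genes between -0.41 and -0.32. The PA difference with the medium minus that without it was therefore negative for the 3 effectors (-0.61 to -0.33) and slightly positive for the 3 IRGM genes (0.08 to 0.12). These ranges kept their signs and did not overlap with 75th percentile scaling, the normexp background or the mean of detected probes, the 3 alternatives that moved any of these values. With the mean of detected probes, which brings in the dim probe of Irgm1, its value was 0.52 in place of 0.12. Gbp2, Gbp3 and Gbp5 were on the negative side (-0.37, -0.12 and -0.56), as were Gbp2b, Gbp6, Gbp7 and Gbp9 (-0.45 to -0.28). Of the 165 genes above, 21.2% had a positive value and the median was -0.26. Genes not well above background on every array are left out of these ranges. One of them, the effector gene Gm12250, stood at -0.14 when the medium was added to PA, outside the range of the 3 effectors. Its PA difference with the medium minus that without it was 0.05, on the side of the IRGM genes, but 2 of the 4 levels behind it were not well above background. The classes were set side by side with these values known, each value rests on 4 spots, and the difference between the classes was not tested. The SD between only 2 spots was 0.059 at levels of 11 to 13, and a value that rests on 4 spots carries a larger error. The IRGM values of 0.08 to 0.12, and so their sign, are therefore not clearly apart from the error of measurement.

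**Figure D4:**
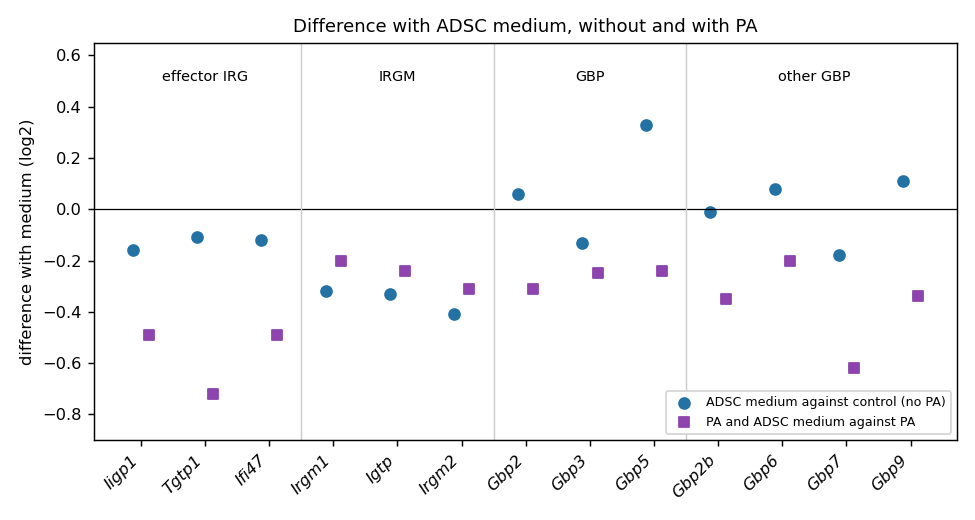
Log2 difference with ADSC medium (y axis) for 13 GTPase genes by class, without PA (blue circles) and with PA (purple squares), each from 2 arrays with no error bar. In the effector IRG genes the squares lie below the circles (-0.72 to -0.49 against -0.16 to -0.11), and in the IRGM genes above them (-0.31 to -0.20 against -0.41 to -0.32).

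Of the other IRG and GBP genes on a list of the 2 families, 12 were on the array and 10 could be compared for PA against control. Of these, 8 were at least 2-fold higher (against 1.09% of all genes) and none was 2-fold lower (against 0.599%). Their median was 1.80, with 4 genes at lower bounds, against 2.16 for the 8 genes. With the normexp background it was 0.88, and the median for both agents against control was 0.93 in place of 1.49, and against ADSC medium 0.82 in place of 1.20. With the medium added to PA 9 of the 10 were lower and Irgq was level, at 9.04 on both arrays. The difference reached 1.5-fold in 4 genes (against 3.72% of all genes) and 2-fold in 1 (against 0.507%), with a median of -0.34. Gbp6 was 6.07-fold higher with PA (6.45 to 9.05), Gbp7 4.31-fold (7.11 to 9.21), Irgm2 3.88-fold (11.16 to 13.11) and Gbp9 3.12-fold (6.80 to 8.44). Gbp2b, with levels of 8.89 in control and 11.21 with PA, had a difference of 2.32. For Gbp4, Gbp8 and the effector gene Gm12250, which were not well above background in control, only lower bounds are known, of at least 5.89-fold, 2.10-fold and 2.10-fold. 9930111J21Rik2 was well above background on the PA array alone, at least 1.83-fold above control and 2.28-fold above PA and ADSC medium. Irgq, an atypical relative that does not belong to the interferon-inducible set, differed by -0.14. Irgc1, known from testis, and Gm4951 were not well above background on any array.

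More distant interferon-inducible GTPases were also high with PA. The dynamin-like Mx2 was 10.7-fold higher, Mx1 at least 5.44-fold, and Gvin1, a very large GTPase, 3.93-fold, or 8.11-fold and 8.62-fold on its other 2 probes. The Gvin1 probes list the transcript of Gm4070 as well. In the presence of PA these genes were lower with the medium (-0.44 to -0.10), inside the range of the 8 except for Mx1, and the other 2 Gvin1 probes stood at -0.68 and -0.69.

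Among 22 genes of the interferon pathway, 20 could be compared for PA against control, with a median of 0.35. Of the 20, 6 were at least 2-fold higher (against 1.09% of all genes) and none 2-fold lower (against 0.599%). Ifng, the type II interferon gene, was not well above background on any array, with levels of 0.03 to 0.10. Ifnb1, a type I interferon gene, was not well above background in control (1.41) or with ADSC medium (1.51) but was with PA (5.53) and with both (4.90). PA went with a level at least 8.61-fold higher than in control, and at least 6.06-fold higher once the medium was present. Stat2 and Irf9, whose products act together at the ISRE, were 3.23-fold and 2.16-fold higher with PA. Irf7, a factor that amplifies type I interferon, was 4.69-fold and Usp18, a feedback inhibitor, 5.44-fold higher, while Irf1, an early factor of both interferon types, differed by 0.55. The receptor genes Ifngr1 (-0.06), Ifngr2 (-0.12), Ifnar1 (0.00) and Ifnar2 (0.12) differed little. With the medium added to PA, Ifnb1 was lower by 0.64, and Irf9 was level at 10.99 on both arrays.

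RNA for proteins that these GTPases work with differed little for most genes. The 24 comparable genes for the autophagy conjugation machinery, ubiquitin ligases, lipid anchoring and inflammasomes had a median of 0.03 with PA. Of them, 3 exceeded control 2-fold under PA (against 1.09% of all genes) and none was 2-fold lower (against 0.599%). These 3 were Trim21 (3.50-fold) and Rnf213 (2.88-fold), both ubiquitin ligases that act on cytosolic microbes, and Casp4 (2.05-fold), the caspase that senses bacterial lipopolysaccharide. Atg5, Atg3 and Atg16l1, which place IRGs and GBPs on vacuoles, were at 0.09, 0.12 and 0.03. The prenylation genes Fnta, Fntb and Pggt1b were at -0.22, 0.12 and 0.43. The DNA sensor gene Aim2 was not well above background on any array.

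The 5 genes outside these families with the most similar profile over the 4 arrays were Trim30a, Dhx58, Samd9l, Car6 and Isg15. Likeness was the Euclidean distance between profiles centred on their own mean, taken to the mean profile of the 8 genes and ranked over 17339 genes. The distances were 0.044, 0.094, 0.127, 0.139 and 0.157, against 0.241 (Gbp3) to 0.790 (Iigp1) for the 8 genes themselves. Trim30a, an interferon-inducible TRIM gene, had levels of 9.10, 11.30, 9.04 and 10.94 in the order control, PA, ADSC medium and both. With 4 points a profile, this ranking describes the arrays and nothing more.

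The label of the cells was checked against fixed marker lists. Summed signals cover every listed marker on the array, also those not well above background. Of 15 stellate cell markers 11 were well above background on every array, among them Acta2, Des, Pdgfrb and Col1a1, but Lrat, Reln, Hgf and Lum were not on any. Macrophages express these GTPases strongly, and of their 13 markers 5 to 7 were well above background per array, with a summed signal of 877 in control, 842 with PA, 1225 with ADSC medium and 1389 with both. Adgre1, Ptprc, Clec4f, Cd163, Timd4 and Vsig4 were not well above background on any array, and the sum was lower on the PA array than in control. Cd68, Csf1r, Cd14, Marco and Lyz2 were well above background on all 4, and with PA stood at 0.13, -0.78, -0.27, -0.03 and 0.40 against control. Of 12 lymphocyte and natural killer cell markers 5 or 6 were well above background, with sums of 164, 146, 182 and 169 in that order of conditions, and Cd3g, Cd8a, Ncr1 and Prf1 on none. Of 8 adipose stromal markers 5 were well above background on every array. The sum of all 8 was 9562 in control, 9573 with PA, 12650 with ADSC medium and 14230 with both. Endothelial markers, 5 of 8 well above background, summed to 919, 1136, 1027 and 1360 in the same order. Pecam1, Cdh5 and Lyve1 were not well above background on any array. Hepatocyte markers, 2 or 3 of 7 well above background, summed to 88.0 to 98.3 over all 7. Alb, Apoa1, Ttr and Cyp2e1 were not well above background on any array. What part these other markers have in the GTPase values was not tested.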

How the data were processed

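Total RNA of IMS/N cells was labelled with Cy3 and hybridized to Agilent design 014868, annotated on mm9, and read with Feature Extraction 12.1.1.1 (protocol GE1_105_Dec08), per the file headers. As deposited, the values are intensities, which the authors' scanner software had background-subtracted and detrended within each array, per the file headers. The authors used quantile normalization, per the series' design text, with R 3.5.1 named in the submitters' processing notes. The same authors deposited 2 lists of probe names, of unstated threshold.

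Here, control spots and spots with outlier flags (82 to 104 an array) were dropped. Values were taken to log2, averaged per probe and quantile-normalized with limma 3.58.1 in R 4.3.3. Of 41174 probes 28 were dropped. Symbols came from the RefSeq table for 28680 probes, and the probe of highest mean level stood for a gene. A gene was compared when well above background on at least 1 of 2 arrays. Where the other side was dim, it was set to the higher of its own level and the lowest level well above background (2.43 control, 2.07 PA, 2.30 ADSC medium, 2.11 both), and the difference is written "at least". Steps were tested on simulated data. Python 3.11.15 with numpy 2.4.6, pandas 2.3.3 and matplotlib 3.10.9 was used.

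The 8 genes, the lists and the class comparison were chosen with earlier results of these data known. Named genes were all 8 genes with every probe, the other listed GTPase genes, pathway and partner genes at least 2-fold different in any comparison plus 7 fixed interferon pathway genes, and the 5 most similar profiles. The values of 1 of these genes are not reported here. Other genes named with values, Ifnar1, Ifnar2, the autophagy and prenylation genes and Gm12185, were chosen after their values were seen. Alternatives were 75th percentile scaling, normexp background (offset 50), no dim filter, the mean of detected probes, kept outlier spots and a 1.5-fold threshold. The number of arrays limits the precision.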

Additional observations from a re-analysis of the deposited data

Results flagged for a closer look

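Of the GTPase genes well above background on all 4 arrays, 4 had opposite signs for ADSC medium without and with PA: Gbp2 (0.06 and -0.31), Gbp5 (0.33 and -0.24), Gbp6 (0.08 and -0.20) and Gbp9 (0.11 and -0.34). Each sign rests on 1 array per condition, and the difference between the effects was not tested. All 4 are GBP genes. The values without PA for Gbp2, Gbp6 and Gbp9 are no greater than the SD between 2 spots of a probe at their levels (0.0675 for Gbp2 and 0.132 for Gbp6 and Gbp9). Gbp4, not well above background in control, was higher by at least 0.52 with the medium alone and stood at -0.85 with the medium added to PA.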

How the results depend on the processing

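All 24 differences of the 8 genes past 2-fold kept their sign, and 119 of 120 values stayed past 2-fold over 5 alternative settings. The exception was Gbp5 in PA and ADSC medium against ADSC medium, at 0.92 with the normexp background. The median with PA was 2.16, 2.02 after normexp, and 1.91 when detected probes were averaged. For both agents against control it was 1.89, and 1.58 and 1.64 in the same order, and for both against ADSC medium 1.83, and 1.69 and 1.70. At 1.5-fold, 1 of the 8 genes differed between both agents and PA (Tgtp1), in place of 0 at 2-fold. Of 200 values of single genes under an alternative, 179 moved by less than the SD between 2 spots and 21 by more, 13 of the latter with normexp, and no sign changed. The median difference between the PA effects with and without the medium was -0.35, and between -0.35 and -0.30 under the alternatives. The cause of these shifts was not tested. No paired analysis was possible because each condition has 1 array.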
